A study of Mus musculus with 2 samples.

Results

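Glycolysis enzymes were examined in CD4+ T cells from the spleen of DBA/1 mice, a strain susceptible to the arthritis that immunisation with glucose-6-phosphate isomerase (GPI) induces, and of C57BL/6 mice, which resist it. GPI is itself the enzyme of the second step of glycolysis, so the immunogen belongs to the pathway described here. Of 10 listed genes (Gpi1, Hk1, Hk2, Aldoa, Tpi1, Pgk1, Pgam1, Eno1, Pkm and Ldha), 8 were measured by 16 probe sets that carry exactly 1 gene symbol. They are 8 of 12393 genes named in this way on the arrays. No probe set is named Gpi1 or Eno1 in the platform annotation used, so the mouse homologue of the immunogen and the main enolase were not analysed here.

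There was 1 array per strain, both of cells taken 7 days after immunisation and isolated by magnetic sorting. The sources used here do not give the number of mice behind each RNA sample, the form of GPI injected or the age of the animals. Each value is an Affymetrix MAS5 intensity, which summarises the probes of a probe set on a linear scale. The difference between strains is given as the log2 ratio of DBA/1 over C57BL/6, and a positive value means a higher signal in DBA/1. A single array per strain allows neither a test nor a replicate error, and a difference between mice of a strain, sorts or labelling reactions cannot be told apart from a difference between strains. In a bulk sample, fewer cells of a type and less RNA per cell cannot be told apart either. Whether the probes match the sequences of both strains equally was not tested, so a ratio of signals need not be a ratio of RNA.

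Glycolysis splits glucose into pyruvate in the cytosol and yields ATP without oxygen. Hexokinases trap glucose as glucose-6-phosphate, GPI converts it to fructose-6-phosphate, and aldolase and triosephosphate isomerase turn the sugar into triose phosphates. Phosphoglycerate kinase and pyruvate kinase make ATP, and lactate dehydrogenase regenerates NAD+ by reducing pyruvate to lactate. Resting T cells rely mostly on mitochondrial respiration, and activated T cells raise glycolysis under the control of mTOR, MYC and HIF-1.

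Differences between the strains were small in most of the pathway. Among the 8 enzymes, 6 had a higher signal in DBA/1 and 2 a lower one, and the median log2 ratio was 0.22. Over all 6936 genes above the floor on at least 1 array, the median was 0.10 and 60.6% had a higher signal in DBA/1. The floor is the median signal of an array (37.6 on the DBA/1 array and 38.04 on the C57BL/6 array), and lower signals were raised to it. All 16 probe sets of the enzymes lay above it on both arrays, so no member was lost to the floor. Hk2 was the 1 enzyme of 8 at least 1.5-fold higher in DBA/1, against 11.8% of all genes. No enzyme was at least 1.5-fold lower, against 5.97% of all genes, and none was at least 2-fold higher, against 3.84%.

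The median of the enzymes, 0.22, lay above that of all genes, 0.10, and came nearer to 0 when the arrays were rescaled. The mean signal without the extremes was 146.0 on the DBA/1 array and 135.6 on the C57BL/6 array, while the median signals were close. The lowess curve of the ratio rose with signal, from -0.03 at a mean log2 intensity of 5.5 to 0.16 at 10.5. After median centring, quantile normalization or lowess the median of all genes lay between 0.016 and 0.024. The median of the 8 enzymes was then 0.14, 0.068 and 0.080, again with 6 higher and 2 lower. For comparison, probe sets of 1 gene gave an error of 0.31 per log2 ratio, computed over 2325 genes in which 2 probe sets passed the floor in both strains. It is 1 SD for a single probe set, derived from differences between probe sets on the same 2 arrays and pooled over all signals. Variation between mice, sorts or arrays is not in it. The ratios of Hk1, Aldoa, Tpi1, Pkm and Ldha were smaller than this probe error, and those of Pgk1 (0.38), Pgam1 (0.39) and Hk2 (0.84) exceeded it. After each rescaling Pgk1 (0.23 to 0.30) and Pgam1 (0.28 to 0.30) were below it too, and Hk2 (0.76 to 0.80) was not.

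**Figure D1:**
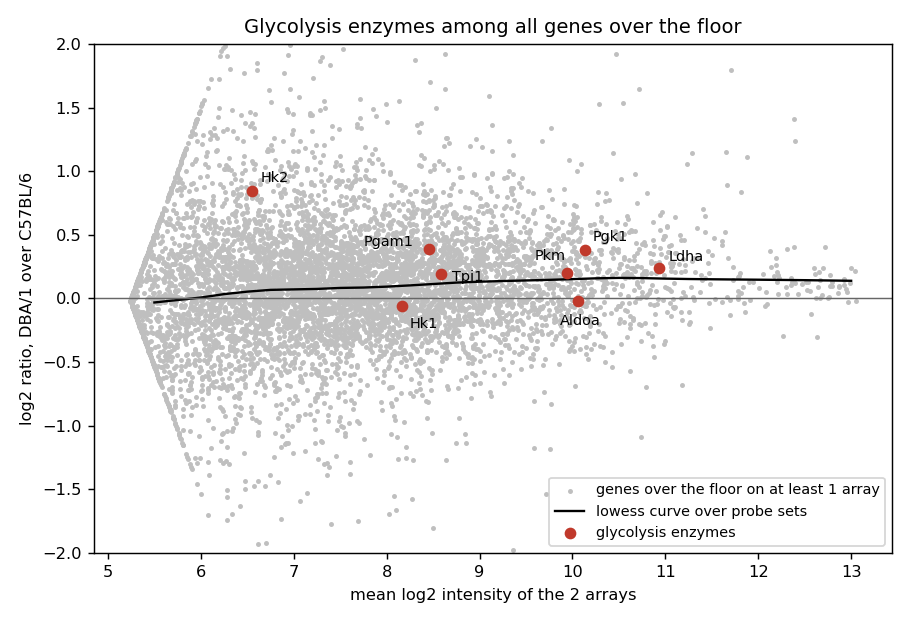
Log2 ratio of DBA/1 over C57BL/6 (vertical axis) against the mean log2 intensity of both arrays (horizontal axis) for genes above the floor on at least 1 array (grey), with the 8 glycolysis enzymes in red and the lowess curve in black. Hk2 stands at 0.84, the other 7 enzymes lie between -0.06 and 0.39, and 49 genes beyond a log2 ratio of 2 in either direction are outside the plotted range.

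Promoter sequences are shown for 3 genes, Hk2 and Pgk1 because they hold the only probe sets at or above 1.5-fold, and Ldha because its promoter has the most matches to the letters searched. HIF-1 binds DNA around ACGTG or GCGTG, and MYC with MAX binds CACGTG. Capitals mark ACGTG and GCGTG on either strand (CACGT and CACGC when read on the other), and each window runs from 250 bases before to 50 bases after the start of the gene, 5′ to 3′ on the gene's strand, from RefSeq on GRCm38.p6. Only this reference build was searched, and no sequence of DBA/1 was examined. The windows are chr6:82774405-82774704 on the minus strand for Hk2, chrX:106186850-106187149 on the plus strand for Pgk1 and chr7:46845554-46845853 on the plus strand for Ldha.
Hk2: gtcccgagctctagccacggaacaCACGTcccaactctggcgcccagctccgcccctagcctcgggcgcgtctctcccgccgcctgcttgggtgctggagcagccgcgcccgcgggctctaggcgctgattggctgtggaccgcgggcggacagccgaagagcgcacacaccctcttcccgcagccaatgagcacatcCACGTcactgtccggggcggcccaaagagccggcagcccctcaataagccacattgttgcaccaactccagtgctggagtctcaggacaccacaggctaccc
Pgk1: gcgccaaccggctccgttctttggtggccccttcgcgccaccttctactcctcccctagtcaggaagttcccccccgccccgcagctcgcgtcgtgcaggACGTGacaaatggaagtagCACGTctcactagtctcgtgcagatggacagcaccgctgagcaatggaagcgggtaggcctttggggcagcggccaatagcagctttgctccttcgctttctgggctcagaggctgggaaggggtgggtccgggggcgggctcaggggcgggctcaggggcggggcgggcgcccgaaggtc
Ldha: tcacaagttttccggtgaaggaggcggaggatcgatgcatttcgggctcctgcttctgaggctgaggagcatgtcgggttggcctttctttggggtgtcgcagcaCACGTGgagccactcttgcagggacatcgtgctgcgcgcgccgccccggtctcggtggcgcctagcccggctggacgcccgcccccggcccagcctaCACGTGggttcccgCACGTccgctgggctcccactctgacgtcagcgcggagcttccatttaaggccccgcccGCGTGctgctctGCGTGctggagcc

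The Hk2 and Pgk1 windows held 2 matches to ACGTG each. The Ldha window held 5 matches to ACGTG and 2 to GCGTG in 5 separate stretches, 2 of which spell CACGTG, a word that counts on both strands. RefSeq gave 13 windows for the 8 genes, and ACGTG was present in 8 of them, from 7 genes, against 19.6% of 32851 promoter windows of the same length. GCGTG was present in 4 of the 13, from 3 genes, against 32.4% of all windows. CACGTG was found in 1 of the 13, against 7.15% of all. Tpi1 was the gene without any of these words in its window, and 2 windows of Aldoa overlap and share their match. A match describes the letters only, and whether HIF-1 or MYC binds these windows was not tested.

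The hexokinases differed from each other. Hk2, the hexokinase that T cells induce on activation, read 125 in DBA/1 and 69.7 in C57BL/6, a log2 ratio of 0.84 or 1.80-fold. This ratio exceeded those of 94.3% of all genes above the floor, and Hk2 has no second probe set. Of the 16 probe sets, that of Hk2 lay nearest to the floor on both arrays. With log2(signal + 32), which damps low signals, the ratio of Hk2 was 0.63, and over all 9 alternative settings it ranged from 0.63 to 0.84. Hk1, the constitutive isoform, read 282 in DBA/1 and 294 in C57BL/6, a log2 ratio of -0.06. Its second probe set read 201 in DBA/1 and 195 in C57BL/6, at 0.05. Both ratios are smaller than the probe error, and no difference in Hk1 was detectable on these arrays.

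The probe sets of aldolase and triosephosphate isomerase ranged from -0.02 to 0.48. Aldoa, which cleaves fructose-1,6-bisphosphate, had 4 probe sets. The brightest read 1060.2 in DBA/1 and 1078 in C57BL/6, a log2 ratio of -0.02. The others read 804, 554 and 473 in DBA/1, against 744, 406 and 444 in C57BL/6. Their log2 ratios were 0.11, 0.45 and 0.09, and the mean of all 4 was 0.16 with an SD of 0.20. All 4 carry the suffix by which the manufacturer marks probes that may match other transcripts too. Tpi1, which interconverts the triose phosphates, read 412 in DBA/1 and 360.3 in C57BL/6, at 0.19. Its other probe sets lay at 0.29 and 0.48, so all 3 had a higher signal in DBA/1, with a mean of 0.32 and an SD of 0.15.

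Pgk1, the first ATP-producing enzyme, gave the widest spread between probe sets. The probe set used for the gene read 1285 in DBA/1 and 987 in C57BL/6, a log2 ratio of 0.38. The probe set without a cross-hybridisation suffix read 1327 in DBA/1 and 862 in C57BL/6, at 0.62 or 1.54-fold. The remaining one read 183 in DBA/1 and 202 in C57BL/6, at -0.14. The sign of Pgk1 therefore depended on the probe set, and the mean of the 3 was 0.29 with an SD of 0.39.

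**Figure D2:**
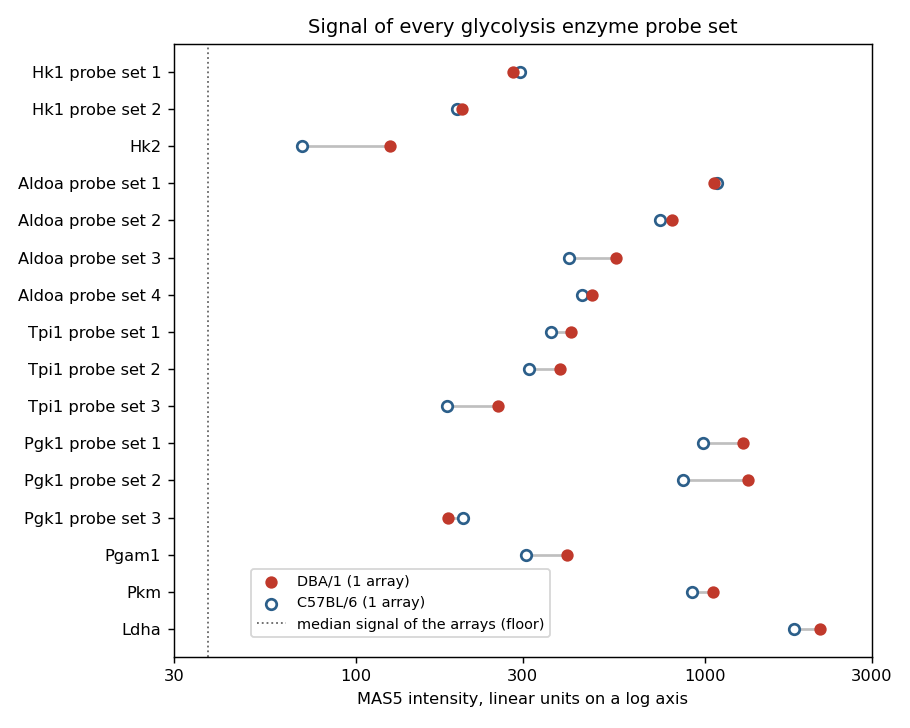
MAS5 intensity (horizontal log axis) of each of the 16 probe sets in DBA/1 (filled red) and C57BL/6 (open blue), 1 array each, in the order of the pathway, and the floor as a dotted line. A level in one row cannot be set against that in another row; within rows, 13 of 16 probe sets have the higher signal in DBA/1.

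The enzymes of the last steps had single probe sets and small differences of one sign. Pgam1, which moves the phosphate of 3-phosphoglycerate, read 401 in DBA/1 and 307 in C57BL/6, a log2 ratio of 0.39 or 1.31-fold. Pkm, pyruvate kinase of muscle type, read 1055 in DBA/1 and 917 in C57BL/6, at 0.20. Its splice forms were not told apart by this probe set. Ldha, the lactate dehydrogenase subunit of glycolytic cells, read 2128 in DBA/1 and 1803 in C57BL/6, at 0.24 or 1.18-fold. For Pkm and Ldha the lowess curve at their signal lay at 0.15 and 0.16, which left 0.05 and 0.08 after it was subtracted.

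Over probe sets rather than genes, 13 of 16 had a higher signal in DBA/1, against 58% of all 10889 probe sets above the floor on at least 1 array. After median centring 12 of the 16 did, and after quantile normalization or lowess 10 did. As deposited, 2 of 16 were at least 1.5-fold higher in DBA/1, against 10.6% of all probe sets, and 1 was after each of the 3 rescalings. Probe sets of 1 gene are repeat measurements of the same RNA and not replicates.

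**Figure D3:**
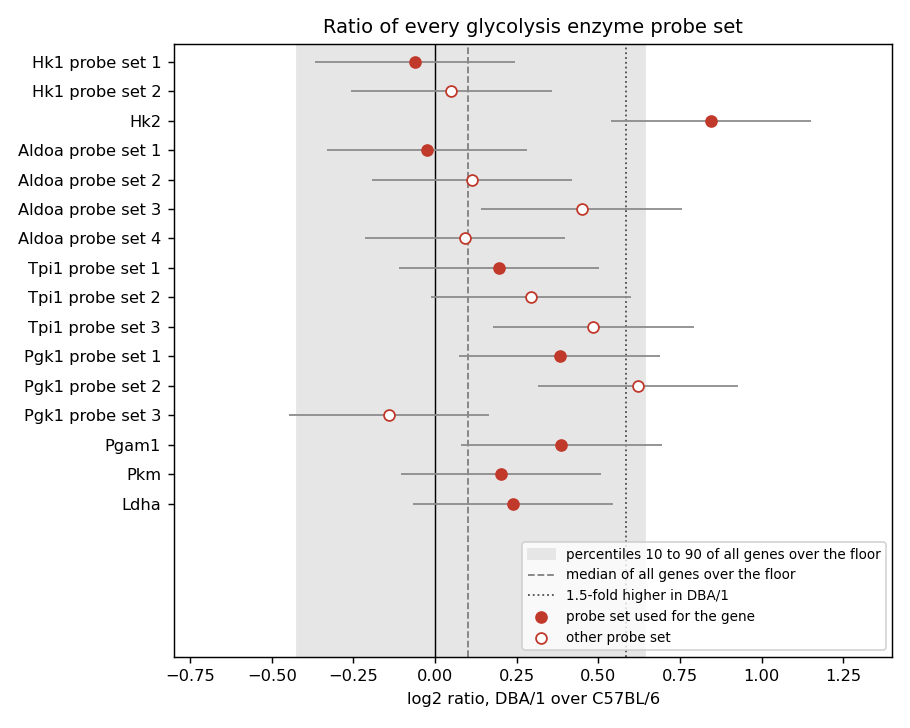
Log2 ratio of DBA/1 over C57BL/6 (horizontal axis) for each of the 16 probe sets; filled points represent the gene, bars are the probe error of 0.31 on each side, and the grey band spans percentiles 10 to 90 of all genes above the floor (-0.42 to 0.64). Hk2 at 0.84 is the only point outside the band, and the 3 Pgk1 probe sets run from -0.14 to 0.62.

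Genes around the pathway were described from lists, each gene by its brightest probe set. Of 9 measured isoforms and other glycolysis enzymes, 7 had a higher signal in DBA/1 as deposited and 5 did after each rescaling, with medians of 0.22 and 0.10 to 0.13. Eno3, the muscle-type enolase, read 257 in DBA/1 and 149.8 in C57BL/6 (log2 ratio 0.78). Adpgk, an ADP-dependent glucokinase, was at 0.74 with signals of 74.6 in DBA/1 and 44.5 in C57BL/6, and its second probe set was at -0.06. Ldhb, the other lactate dehydrogenase subunit, was at 0.49, and its other 3 probe sets were at 0.50, 0.45 and -0.05. Minpp1, a phosphatase of inositol phosphates that also acts on bisphosphoglycerate, was at -0.41. The phosphofructokinases, which commit the sugar to glycolysis, were at 0.02 for Pfkl, 0.002 for Pfkm and 0.22 for Pfkp, and the first 2 of these were below 0 after each rescaling. Second probe sets were at 0.11 for Pfkl and -0.03 for Pfkp. Gapdh is named only for control probe sets, which were left out of the lists.

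Glucose transporters differed in sign in their brightest probe sets, but not in every probe set. Slc2a3 (GLUT3) read 645 in DBA/1 and 458 in C57BL/6, at 0.49, and Slc2a1 (GLUT1) read 183 in DBA/1 and 202 in C57BL/6, at -0.14. The lactate transporter Slc16a1 was at -0.002 and its chaperone Bsg at 0.17. Pfkfb3, which makes the activator of phosphofructokinase, read 123 in DBA/1 and 97.3 in C57BL/6, at 0.34, and was the 1 measured gene of 5 on its list.

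At the entry of pyruvate into mitochondria, Pdk1 had the largest difference of any measured gene on these pathway lists. It encodes a kinase that inactivates pyruvate dehydrogenase and is a HIF-1 target. Its 2 probe sets read 25.1 and 17.5 in DBA/1, both under the floor, and 475 and 489.6 in C57BL/6. Its signal was thus at least 12.7-fold lower in DBA/1, taken against the floor in the first of these probe sets. The other 6 measured genes of this list were between -0.10 and 0.37, with Pdk3 at 0.37, Mpc1, a subunit of the pyruvate carrier, at 0.31 and Pdha1 at 0.11 (-0.01 and -0.02 after quantile normalization and lowess). Against 1 of 7 genes on this list at least 2-fold lower, the share over all genes was 1.9%.

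All 15 measured genes of the tricarboxylic acid cycle had a higher signal in DBA/1 as deposited, with a median of 0.29, 13 did after median centring (median 0.20), and 11 did after quantile normalization or lowess, with medians of 0.15 and 0.14. Of all genes, 60.6% had a higher signal in DBA/1 as deposited and 51.7% to 52.4% after rescaling. Probe sets of a gene did not always share a sign: Idh3b, a subunit of isocitrate dehydrogenase, was at 0.06 in the probe set used, and a second one read 159 in DBA/1 and 383 in C57BL/6, at -1.27. Of the 15 genes, 3 were at least 1.5-fold higher as deposited, against 11.8% of all genes: the fumarase gene Fh1 (0.88), the succinyl-CoA ligase subunit Sucla2 (0.68) and the succinate dehydrogenase subunit Sdhd (0.64). Sdhd fell below 1.5-fold after each rescaling (0.525 to 0.557), and Sucla2 did after quantile normalization and lowess (0.557 and 0.555). Fh1 stayed above it (0.74 to 0.79). Of all genes, 9.21% to 9.8% were at least 1.5-fold higher after rescaling. Mdh2, mitochondrial malate dehydrogenase, was at 0.41. In the pentose phosphate pathway, whose median was 0.08 as deposited and -0.001 after median centring, Pgd read 771 in DBA/1 and 442 in C57BL/6, at 0.80, and its other 3 probe sets were at 0.94, 0.31 and 0.20. Pgls was at 0.51. Rpe was at 0.45 with a second probe set at 0.03, and Tkt at -0.10 with a second one at 0.37, so the sign of Tkt depended on the probe set.

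All 6 measured genes of glycogen and galactose entry had a higher signal in DBA/1, also after each rescaling, with a median of 0.48. The share over all genes was 60.6% as deposited and 51.7% to 52.4% after rescaling. Pygl, the liver-type glycogen phosphorylase, read 230.5 in DBA/1 and 77.0 in C57BL/6, at 1.58 or 2.99-fold. Pgm2 was at 0.90, Ugp2 at 0.52 and Galt at 0.44. Other probe sets of Ugp2 were at 0.44, 0.40, 0.20 and 0.045. Of the gluconeogenic genes only Pck2 was above the floor, at -0.53, and the other 5 were below it on both arrays.

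Most regulators had a lower signal in DBA/1 as deposited, each by less than the probe error in the probe set used. Targets of HIF-1 outside glycolysis went both ways. Hif1a read 1171 in DBA/1 and 946 in C57BL/6, at 0.31, and its other 2 probe sets above the floor were at 0.08 and 0.04. Myc was at -0.05 and Txnip, which restrains glucose uptake, at -0.09. Irf4, a transcription factor induced by T cell receptor signals, read 161 in DBA/1 and 88.5 in C57BL/6, at 0.86, Max was at -0.26 and Stk11 at -0.20. The median over 12 regulators was -0.04 as deposited, with 8 lower in DBA/1, against 2730 of all 6936 genes. It was -0.12 after median centring and -0.16 after quantile normalization or lowess, with 10 and 9 of 12 lower. Of all genes, 51.7% to 52.4% had a higher signal in DBA/1 after these rescalings. A second probe set of Akt2 was at 0.28, against -0.08 in the one used. Foxo1 was at -0.03, with other probe sets at -0.37 and -0.43. HIF-1 targets outside glycolysis had a median of 0.08 over 8 measured genes, which was -0.007 after median centring. This list does not hold the HIF-1 target Pdk1, which was at -3.66 with DBA/1 under the floor. Bnip3 was at least 1.97-fold higher in DBA/1, with C57BL/6 under the floor, Ddit4 was at -0.41, Kdm3a at -0.37 and Mxi1 at 0.23.

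**Figure D4:**
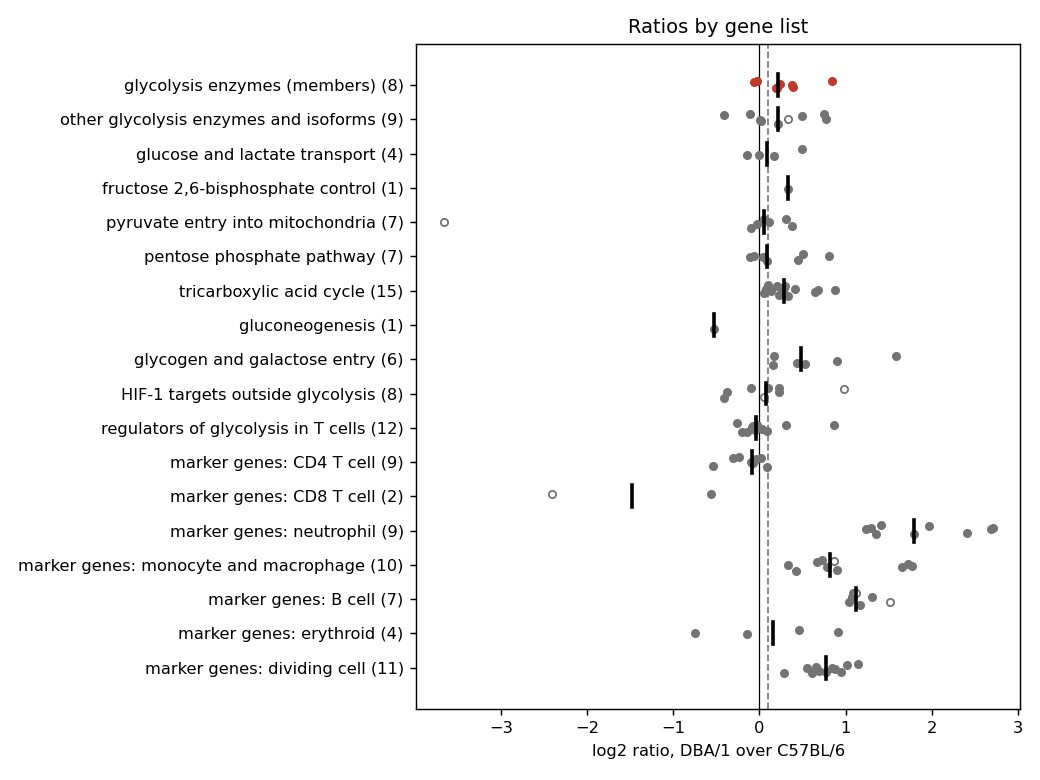
Log2 ratio of DBA/1 over C57BL/6 (horizontal axis) of every measured gene by list, with the number of genes in brackets; black ticks are medians, open points have 1 strain under the floor, and the dashed line is the median of all genes (0.10). The 8 glycolysis enzymes have a median of 0.22, and the neutrophil, B cell, monocyte and dividing cell markers have medians from 0.78 to 1.79.

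By their medians, markers of neutrophils, B cells, monocytes and macrophages, CD8 T cells and dividing cells differed more than the enzymes did. Erythroid markers did not. Of 10 listed CD4 T cell markers 9 were measured, and besides Cd4 they include T cell genes not particular to CD4 cells, such as the CD3 chains. Their median was -0.08 as deposited and -0.17 to -0.23 after rescaling. As deposited 7 of the 9 were lower in DBA/1, and after rescaling 8 or 9 were. Their summed intensities were 12239 in DBA/1 and 13332 in C57BL/6. Cd4 itself read 913 in DBA/1 and 857 in C57BL/6. Its log2 ratio was 0.09 as deposited and between -0.06 and 0.007 after rescaling. All 9 measured neutrophil markers of 12 were at least 2-fold higher in DBA/1, against 3.84% of all genes, with sums of 34056 in DBA/1 and 10549 in C57BL/6; Cxcr2 was under the floor on both arrays. All 7 measured B cell markers of 10 were at least 2-fold higher as deposited, against the same 3.84%, with sums of 1601 in DBA/1 and 690.1 in C57BL/6. Blk and Fcer2a were under the floor in C57BL/6, and Pax5 and Ebf1 were under it on both arrays. After each rescaling Cd79a (0.95 to 0.98) and Cd79b (0.99) were slightly below 2-fold. The sums of 10 monocyte and macrophage markers were 8132 in DBA/1 and 4381 in C57BL/6, with Fcgr1 under the floor on both, and those of 11 dividing cell markers were 4153 in DBA/1 and 2506 in C57BL/6. The CD8 chain genes Cd8a and Cd8b1 had lower signals in DBA/1 (sums of 69.0 in DBA/1, where Cd8b1 was under the floor, and 277 in C57BL/6). The 4 measured erythroid genes of 9 had a median of 0.16 but went both ways. Car1 was at 0.91, Klf1 at 0.46, Alas2 at -0.14 and Hbb-b2 at -0.74. The part of these cells in the ratios of Hk2, Pygl, Pgd and the other genes above was not tested.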

How the data were processed

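RNA of 2 samples, 1 per strain, was measured on 1 array each. Per the submitters' processing notes, the authors deposited MAS5 intensity values, 1 per probe set on a linear scale. Its version, scaling target and detection calls were not in the sources used here. Values were used as deposited. Of 22690 probe sets, 64 were controls; of the others, 20380 had 1 symbol in GEO's platform annotation, 691 several and 1555 none listed. Entrez identifiers of 20351 matched RefSeq (GRCm38.p6), used for names only apart from the promoters. A gene was represented by its brightest probe set (mean log2 signal), signals under each array's median were set to it, and genes above it on at least 1 array were counted at 1.5-fold and 2-fold. No test is possible with 1 array per strain; the number of arrays limits the precision. The script was tested on simulated data. The members, the lists and the settings were chosen with earlier results of these data known. Besides the enzymes, the text names, per pathway list, the 4 measured genes farthest from 0 on the log2 scale and any at 2-fold or more, and 9 chosen genes, of which Gapdh was not measured. With 2 arrays a gene has no pattern over samples, so no most-alike genes were sought. Calculations used Python 3.11.15, pandas 2.3.3 and statsmodels 0.14.6.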

Additional observations from a re-analysis of the deposited data

How the results depend on the processing

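No paired analysis was possible because each strain has 1 array and the labels carry no replicate numbers. The 9 alternatives were median centring, quantile normalization, lowess (span 0.3), a floor at percentile 25, at percentile 60 or none at all, log2(signal + 32), the mean over a gene's probe sets, and omission of probe sets with a suffix. Under the first 8 the median log2 ratio of the enzymes ranged from 0.068 to 0.26, 6 or 7 of 8 were higher in DBA/1 and 1 was at least 1.5-fold higher. Omitting suffixed probe sets left 3 enzymes (Hk2, Pgk1 and Pkm), with a median of 0.62, all 3 of them higher in DBA/1 and 2 of them 1.5-fold or more; by the probe sets used otherwise, the same 3 had a median of 0.38 and 1 at 1.5-fold or more, because Pgk1 changed to a probe set at 0.62. Aldoa was below 0 in 7 of 8 alternatives and at 0.16 when its probe sets were averaged, and Hk1 was below 0 in all 8 that gave it a value. The planned ratio of Gpi1 could not be computed. The number of arrays and signals near the floor limit the precision.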

Other observations

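Values outside the comparison above bear on the same pathway. The 3 control probe sets of Gapdh, the enzyme between triosephosphate isomerase and phosphoglycerate kinase, read 3040.3, 3894 and 3260.4 in DBA/1, against 2225, 3140 and 2679 in C57BL/6. Their log2 ratios were 0.45, 0.31 and 0.28. A probe set that lists Hk1 together with Rpl17 and 4 further genes read 6088 in DBA/1 and 5086 in C57BL/6, at 0.26, and cannot be assigned to Hk1.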
